A study of Mus musculus with 4 samples.

Results

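Transcripts of 9 enzymes of the methionine cycle and its branches, Mat1a, Mat2a, Gnmt, Pemt, Sardh, Ahcy, Bhmt, Cbs and Cth, were examined in the livers of mice given aristolochic acid I (AAI), a nephrotoxin and carcinogen of Aristolochia plants. The members were all non-control array features whose gene name in the scanner files was one of these 9 symbols. They came to 14 of 56605 features and 9 of 37074 gene names. Mat2a and Bhmt had 3 features each, Pemt had 2, and the other 6 enzymes had 1.

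Each of 4 single-colour arrays held liver RNA of 1 group of C57BL/6 wild-type mice, mixed in equal amounts from 5 animals that were 6 weeks old at the start. Female mice received AAI at 5 mg/kg/day and male mice received AAI at 2 mg/kg/day, by intraperitoneal injection on 5 days per week for 3 weeks. The corn oil-treated females and corn oil-treated males received the vehicle alone. A group was thus 1 pool on 1 array, so there was no spread between replicates, and no test of a difference could be made. Dose differed between the sexes, and the effects of sex and of dose on an AAI response cannot be told apart.

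In the methionine cycle, methionine adenosyltransferases join methionine and ATP into S-adenosylmethionine (SAM), the methyl donor of the cell. Methyltransferases turn SAM into S-adenosylhomocysteine (SAH), which is split into adenosine and homocysteine. Homocysteine is either methylated back to methionine or passed through transsulfuration to cysteine, a building block of glutathione. The liver carries most of the body's methionine metabolism, and GNMT, the enzyme the study was about, is one of its abundant cytosolic proteins and keeps the ratio of SAM to SAH in bounds.

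Sequences of some of the 60-base features are shown here because the values below are the brightness of such features. Gnmt and Ahcy had 1 feature each, and the printed Bhmt and Pemt features were not the brightest of their genes. The Gnmt feature A_51_P419439 lay on chr17:46862894-46863042 of mm9, minus strand, a span of 149 bases that is 89 longer than the feature. The Ahcy feature A_52_P176160 lay on chr2:154891321-154891380, minus strand, and 1 reading frame was open through all its 60 bases. The Bhmt feature A_55_P2103963 was placed by the files at only 5 bases, chr13:94386836-94386840, minus strand, and its single open frame ran into a final stop codon, printed in capitals. The second Pemt feature A_55_P1970846 lay on chr11:59787580-59787639, minus strand, also with 1 frame open throughout.

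Gnmt A_51_P419439: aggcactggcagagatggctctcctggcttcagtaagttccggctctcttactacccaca
Ahcy A_52_P176160: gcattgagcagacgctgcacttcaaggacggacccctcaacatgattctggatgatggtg
Bhmt A_55_P2103963: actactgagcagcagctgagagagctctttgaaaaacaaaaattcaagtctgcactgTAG
Pemt A_55_P1970846: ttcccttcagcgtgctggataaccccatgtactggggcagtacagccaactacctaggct

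The brighter Bhmt feature, A_55_P2714597 on chr13:94386862-94386921, and the brighter Pemt feature, A_55_P1970860 on chr11:59784123-59784182, each held the polyadenylation signal AATAAA in their 60 bases. The remaining features with a RefSeq transcript of their gene were those of Mat1a on chr14:41937140-41937199, Cbs on chr17:31749593-31749652, Cth on chr3:157557667-157557726, Sardh on chr2:27044997-27045056 and Mat2a on chr6:72382856-72382915 and chr6:72383800-72383859. The last Mat2a and Bhmt features carried another kind of accession and are described with those genes. Of the 14 features, 12 had a RefSeq accession, and all 12 accessions belonged to the named gene in the reference table.

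All 14 features were well above background and unsaturated on each of the 4 arrays. Their values are given as log2 of the intensity after quantile normalization, which makes the distribution of values the same on every array. A level cannot be set against the level of another feature, and where a gene had several features its brightest one stood for it. The log2 ratio is the difference between the log2 levels of 2 arrays, so that 1 is a 2-fold difference. As a measure of technical disagreement, the SD between features of the same gene had a median of 0.25 log2 units in females (9108 genes), 0.24 in males (8601 genes) and 0.23 between the corn oil-treated sexes (8875 genes). This SD does not cover the spread between mice.

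The tissue label was checked with 22 hepatocyte markers, all of them well above background on all 4 arrays. Albumin (Alb) lay between 19.12 and 19.15, transthyretin (Ttr) between 17.92 and 18.48, and apolipoprotein A-I (Apoa1) between 16.31 and 16.74. The log2 of the summed intensity of the 22 markers ran from 22.08 in corn oil-treated males to 22.30 in AAI-treated females. Of markers of other tissues, those of pancreas lay between 13.13 and 13.79 and those of kidney between 11.65 and 12.00, while those of muscle, adrenal and fat differed far more between the arrays. The log2 summed intensity of 12 skeletal muscle markers was 11.27 with corn oil and 15.35 with AAI in females, and 12.54 with corn oil and 18.23 with AAI in males. Troponin T3 (Tnnt3), a part of the fast muscle filament, stood at 9.06 with corn oil and 13.30 with AAI in females, and at 10.41 and 16.00 in males. The summed level of 11 adrenal markers lay between 11.86 and 12.74 on 3 arrays and at 15.52 in AAI-treated males, where 9 fat markers stood at 16.44 against 12.27 to 13.02. Kupffer cell markers were lower with AAI, at 17.18 and 16.02 in females and 16.96 and 16.36 in males, and red cell markers were lowest in AAI-treated males, at 16.71 against 18.55 to 19.01. In pooled whole liver RNA, fewer cells of a type and less RNA per cell cannot be told apart.

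**Figure D1:**
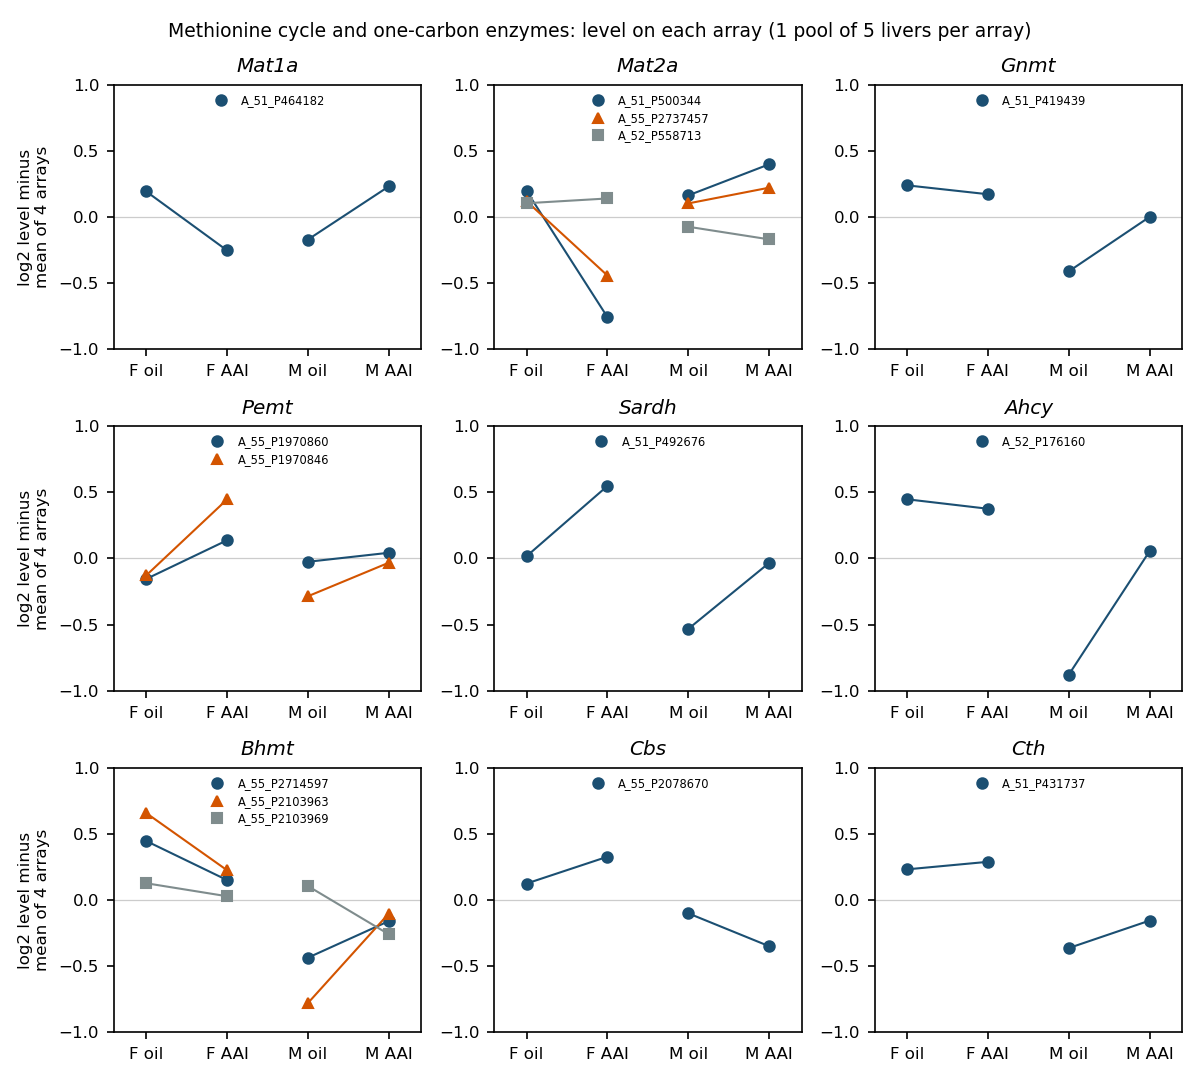
Level of each array feature of the 9 enzymes on the 4 arrays (x axis, F female, M male, oil corn oil), as log2 quantile-normalized intensity minus the mean of that feature over the 4 arrays (y axis, log2 units). Each point is 1 array of a pool of 5 livers, lines join the corn oil and AAI arrays of a sex, and marker shapes separate features of a gene. The corn oil-treated male point is the lowest for 5 of the 9 brightest features and the highest for none.

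Across the 9 enzymes, AAI-treated females had no common direction. The log2 ratio to corn oil-treated females was above 0 for 4 and below 0 for 5, where 53.5% of all genes were above and 44.8% below, with a median of -0.07 against 0.04 over the 31636 genes tested. Only Mat2a passed 1.5-fold, downward, whereas 9.93% of all genes passed that limit downward and 7.81% upward. No enzyme reached 2-fold, a limit that 1.34% of genes reached upward and 3.07% downward. Sardh and Pemt exceeded the SD between features upward, as 29.3% of all genes did, and Mat2a, Mat1a and Bhmt exceeded it downward, as 24.7% did. With features averaged no enzyme passed 1.5-fold, and with centring on the median level of the hepatocyte markers Mat1a and Mat2a did. With centring on the median deviation of those markers from their own means, Mat2a alone did.

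In AAI-treated males, 8 of the 9 enzymes were above corn oil-treated males and 1, Cbs, was below, where 50.1% of all genes were above 0 and 48.4% below. Their median log2 ratio was 0.28, against 0.00 over 30489 genes. Ahcy alone passed 1.5-fold upward, beside 9.84% of all genes, and none passed it downward, beside 11% of all genes. None reached 2-fold, where the shares of all genes were 3.47% upward and 4.56% downward. Ahcy, Sardh, Gnmt, Mat1a and Bhmt exceeded the SD between features upward, where 28.2% of all genes did, and Cbs exceeded it downward, where 27.2% did. After scaling to the 75th percentile of each array, or centring on the median level of the hepatocyte markers, 4 enzymes passed 1.5-fold upward in place of 1: Ahcy, Gnmt, Mat1a and Sardh. After centring on the median deviation of those markers from their own means, Ahcy alone passed it.

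Among corn oil-treated mice, 8 of the 9 enzymes were lower in males than in females, where 52.6% of all genes were below 0. Their median log2 ratio was -0.55 against -0.02 over 30846 genes and -0.17 over the 22 hepatocyte markers. Ahcy, Bhmt, Gnmt and Cth were at least 1.5-fold lower, a share of 4 in 9, where 7.91% of all genes were that much lower and 9.99% that much higher. Ahcy was also past 2-fold, which 1.84% of genes reached downward and 3.81% upward. The SD between features was exceeded downward by 6 enzymes, these 4 with Sardh and Mat1a, and upward by none, where 28.6% and 25.9% of all genes exceeded it. The male AAI ratio and this sex ratio share the corn oil-treated male array, so a low reading there raises the first and lowers the second. After scaling to the 75th percentile the median of the sex ratio was -0.80 and 6 enzymes were at least 1.5-fold lower, with Mat1a and Sardh added. After centring on the median level of the hepatocyte markers the median was -0.26, and Ahcy and Bhmt alone passed that limit. After centring on the markers' deviations the median was -0.40, and the same enzymes passed. The count of 8 also moved with the processing. Mat2a and Cbs were above 0, at 0.25 and 0.06, after centring on the median marker level. Pemt was below 0, at -0.17, after scaling to the 75th percentile.

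**Figure D2:**
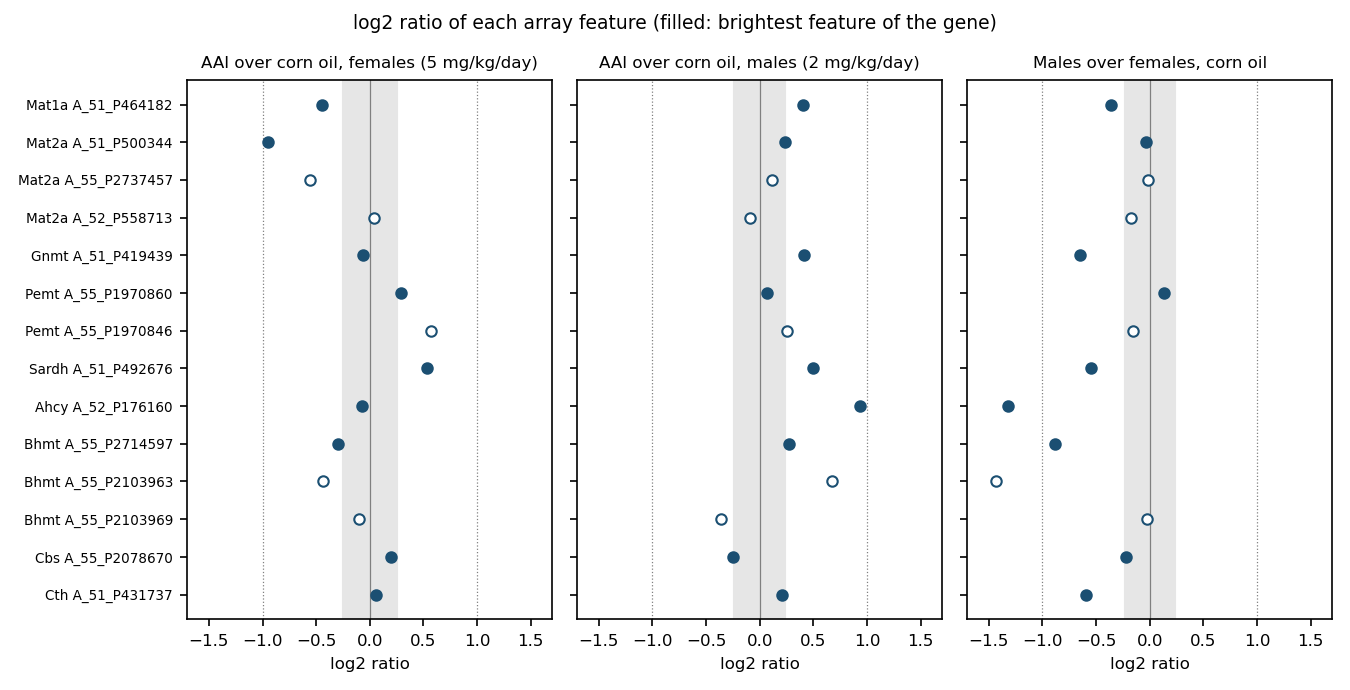
The log2 ratio (x axis) of each of the 14 array features (y axis) for AAI over corn oil in females, AAI over corn oil in males and males over females among corn oil-treated mice. Filled points are the brightest feature of a gene and open points its other features, the grey band is plus and minus the median SD between features of a gene (0.25, 0.24 and 0.23), and dotted lines mark 2-fold. No filled point passes 2-fold in the first and second panels, and only Ahcy does in the third.

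SAM is made by the products of Mat1a and Mat2a. Mat1a encodes the catalytic subunit of the liver form of methionine adenosyltransferase, which marks differentiated hepatocytes. Its level was 15.94 with corn oil and 15.49 with AAI in females, and 15.57 with corn oil and 15.97 with AAI in males. The AAI array was the lowest of the 4 in females and the highest in males. The log2 ratio was -0.45 in females (1.36-fold lower) and 0.40 in males (1.32-fold higher), both beyond the SD between features. The ratio kept its sign under each of the 11 processing alternatives, from -0.60 to -0.34 in females and from 0.38 to 0.64 in males. Alternatives that changed only a fold limit, the filter on dim features or the averaging of features could not move this single feature.

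Mat2a encodes the form found outside the liver, in fetal liver and in dividing hepatocytes. Its brightest feature, A_51_P500344, read 12.87 with corn oil and 11.92 with AAI in females, and 12.84 with corn oil and 13.07 with AAI in males. AAI-treated females stood apart as the low array, and the other 3 lay close together. The log2 ratio of -0.95 in females (1.93-fold lower) was close in size to the 0.93 of Ahcy in males, and the Mat2a ratio in males was 0.23. The second feature, A_55_P2737457, moved the same way by less, with -0.56 in females and 0.12 in males.

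The third feature named Mat2a, A_52_P558713 on chr6:72388801-72388860, was annotated to the cDNA clone AK050582 rather than to a Mat2a RefSeq transcript. It read 8.81 with corn oil and 8.84 with AAI in females and 8.63 and 8.53 in males, a range of 0.31 that did not set AAI-treated females apart. The size of the Mat2a ratio in females also moved with the processing. The scanner software had corrected a trend across the array on 3 arrays but not on that of AAI-treated females, and the factor it computed for the brightest Mat2a feature was 0.80 to 0.87 on the 4 arrays. Without the correction on any array the ratio was -0.63, with it on all 4 arrays -0.67, and with the Mat2a features averaged -0.49. The ratio of Ahcy in males was 0.76, 0.93 and 0.93 under the same 3 settings, larger in size than that of Mat2a in females.

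Gnmt, which transfers the methyl group of SAM to glycine and gives sarcosine, had a single feature. It read 17.66 with corn oil and 17.59 with AAI in females, and 17.01 with corn oil and 17.42 with AAI in males. Corn oil-treated males were the lowest array and corn oil-treated females the highest. The log2 ratio to corn oil was -0.07 in females, less than the SD between features, and 0.41 in males (1.33-fold higher). In females it ran from -0.23 to 0.07 over the processing alternatives and changed sign, while in males it ran from 0.39 to 0.61. By qPCR relative to beta-actin, another measure than the array, the paper reported lower liver Gnmt mRNA with AAI in both sexes. The reason for the difference from the array values was not tested. Among corn oil-treated mice, males were 1.57-fold lower than females, a log2 ratio of -0.65 that ran from -0.90 to -0.36.

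Pemt, which uses SAM to methylate phosphatidylethanolamine into phosphatidylcholine, was the steadiest of the 9 on its brightest feature. The 4 arrays read 15.40 with corn oil and 15.69 with AAI in females, and 15.53 and 15.60 in males. Corn oil-treated females were lowest and AAI-treated females highest, over a range of 0.29. The AAI-treated female array alone lacked the trend correction, and with it on all 4 arrays the Pemt ratio in females was 0.53. The Mat1a ratios were then smaller, at -0.34 in females, 0.39 in males and -0.36 between the corn oil-treated sexes. The rank of Pemt as the steadiest thus depended on the processing. The feature printed above was dimmer and spread over 0.73, at 13.73 with corn oil and 14.30 with AAI in females, then 13.57 and 13.83 in males. Its log2 ratios to corn oil were 0.57 in females and 0.25 in males, against 0.29 and 0.07 on the brightest feature, so both features were higher with AAI in both sexes.

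Sardh encodes the mitochondrial sarcosine dehydrogenase, which takes the methyl group off the sarcosine that GNMT makes. Its level was 14.60 with corn oil and 15.13 with AAI in females, and 14.05 with corn oil and 14.55 with AAI in males. The AAI array was higher in each sex, by a log2 ratio of 0.53 in females (1.44-fold) and 0.50 in males (1.41-fold). Among the 9 enzymes it was 1 of 2, with Pemt, whose AAI ratio was above 0 in both sexes under all 11 alternatives. After quantile normalization, the AAI ratios of both differed between the sexes by less than the SD between features of a single ratio. Over the alternatives that difference, males minus females, ran from -0.08 to 0.31 for Sardh and from -0.47 to 0.12 for Pemt. Corn oil-treated males were the lowest array, at a log2 ratio of -0.55 to corn oil-treated females.

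Ahcy encodes the only enzyme that splits SAH, and it varied most of the 9 between arrays on the brightest feature. It read 13.06 with corn oil and 12.98 with AAI in females, and 11.73 with corn oil and 12.66 with AAI in males. The corn oil-treated males stood apart as low, and the other 3 arrays lay between 12.66 and 13.06. The log2 ratio to corn oil was -0.07 in females and 0.93 in males (1.91-fold higher). Among corn oil-treated mice, males were 2.50-fold lower than females, a log2 ratio of -1.32 that stayed below -1 under every alternative, from -1.47 to -1.04. The male AAI ratio ran from 0.74 to 1.12 and passed 2-fold only when the arrays were centred on the median level of the hepatocyte markers. Centred on the deviations of those markers, it was 0.91.

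Homocysteine is remethylated in the liver by BHMT, which takes the methyl group from betaine. The brightest Bhmt feature read 18.19 with corn oil and 17.90 with AAI in females, and 17.31 with corn oil and 17.59 with AAI in males. Corn oil-treated females were highest and corn oil-treated males lowest, with the AAI arrays of both sexes between them. The log2 ratio to corn oil was -0.30 in females and 0.28 in males, and the corn oil-treated males were at -0.88 to the females (1.84-fold lower). Over the processing alternatives the AAI ratio ran from -0.45 to -0.27 in females and from 0.11 to 0.50 in males.

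The coding Bhmt feature that ends in the stop codon gave the same order of arrays with larger steps. It read 16.15 with corn oil and 15.72 with AAI in females and 14.72 and 15.39 in males. Its log2 ratios were -0.43 in females, 0.68 in males and -1.44 between the corn oil-treated sexes (2.70-fold lower in males). The remaining feature, A_55_P2103969 on chr13:94395097-94395156, was annotated to the Ensembl transcript ENSMUST00000124193. It read only 7.58 to 7.96 and gave log2 ratios of -0.10 in females, -0.36 in males and -0.02 between the sexes.

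Transsulfuration starts with Cbs, whose product joins homocysteine and serine into cystathionine. Cbs read 15.73 with corn oil and 15.93 with AAI in females, and 15.50 with corn oil and 15.26 with AAI in males. It was the only one of the 9 with its lowest level in AAI-treated males. The log2 ratio was 0.20 in females and -0.25 in males, and the male value was 0.0007 after scaling to the 75th percentile.

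Cth encodes cystathionine gamma-lyase, which releases cysteine. Its level was 15.94 with corn oil and 15.99 with AAI in females, and 15.34 with corn oil and 15.55 with AAI in males. Both female arrays were above both male arrays. The log2 ratios to corn oil, 0.06 in females and 0.21 in males, were smaller than the SD between features, and corn oil-treated males were 1.51-fold lower than females. Over the processing alternatives the AAI ratio ran from -0.10 to 0.11 in females. In males it ran from 0.18 to 0.43, past that SD at its upper end. The log2 ratio between the corn oil-treated sexes ran from -0.88 to -0.31.

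The log2 ratio in males (2 mg/kg/day) minus that in females (5 mg/kg/day) was above 0 for 6 enzymes and below 0 for 3. It was 1.19 for Mat2a, 1.005 for Ahcy, 0.85 for Mat1a, 0.57 for Bhmt and 0.48 for Gnmt. The Mat2a difference fell to 0.58 with features averaged, 0.62 with normexp background correction, 0.63 without detrending and 0.90 with detrending on all arrays, while that of Ahcy stayed between 0.90 and 1.35. Cth at 0.15, Sardh at -0.03 and Pemt at -0.22 differed by less than the SD between features of a single ratio, and Cbs stood at -0.45. The SD between features of such a difference of ratios was not computed. The part of the muscle, adrenal, fat, red cell and Kupffer cell markers in the male or female AAI ratios was not tested. Over the 22 hepatocyte markers the median log2 ratio was -0.05 in females and 0.03 in males.

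**Figure D3:**
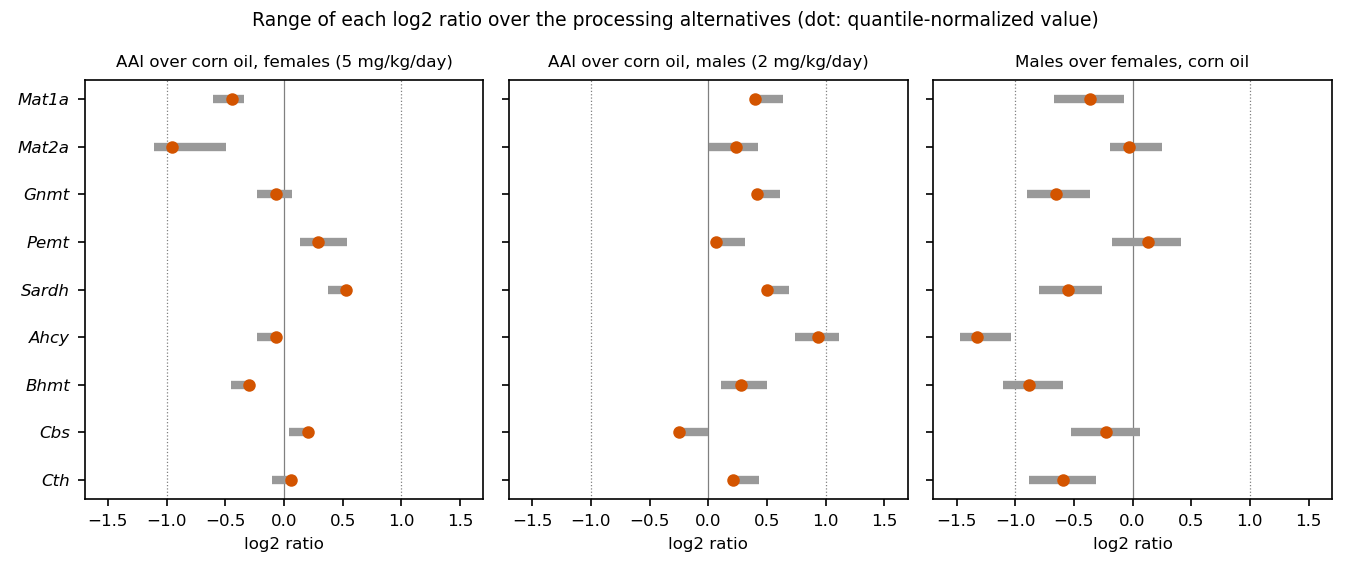
For each of the 9 enzymes (y axis), the log2 ratio (x axis) after quantile normalization (dot) and its lowest to highest value over that and 11 processing alternatives (grey bar), for AAI over corn oil in each sex and for corn oil-treated males over females. Dotted lines mark 2-fold. The Ahcy bar in the third panel, from -1.47 to -1.04, lies wholly past 2-fold, and the Gnmt bar in females, from -0.23 to 0.07, crosses 0.

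Promoter windows of 250 bases before the transcript start were taken for 7 of the 9 enzymes from RefSeq (GRCm38.p6), with 8 windows because Pemt had 2. Cth and Mat1a had no entry. Those of Gnmt, the enzyme the study was about, and Ahcy, the enzyme with the widest range over the arrays, are printed. Capitals mark the letters GCGTG on either strand, the core of the element bound by the aryl hydrocarbon receptor. The Gnmt window was chr17:46729166-46729415 and the Ahcy window chr2:155074498-155074747, both on the minus strand and printed in the direction of the gene.

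Gnmt promoter: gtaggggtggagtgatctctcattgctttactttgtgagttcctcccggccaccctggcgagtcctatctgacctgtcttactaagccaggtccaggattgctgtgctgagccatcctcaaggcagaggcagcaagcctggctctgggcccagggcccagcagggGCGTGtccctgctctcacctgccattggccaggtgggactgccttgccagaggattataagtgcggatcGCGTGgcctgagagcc
Ahcy promoter: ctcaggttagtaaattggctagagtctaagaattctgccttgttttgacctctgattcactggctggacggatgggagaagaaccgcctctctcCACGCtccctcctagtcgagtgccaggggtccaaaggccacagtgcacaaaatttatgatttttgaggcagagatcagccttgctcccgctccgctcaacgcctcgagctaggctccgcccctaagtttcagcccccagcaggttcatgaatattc

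The letters GCGTG occurred 2 times in the Gnmt window and 1 time each in the Ahcy and Mat2a windows, and they were not in the Bhmt, Cbs, Pemt and Sardh windows. Of 32851 windows of the same length, 28.2% held them. The letters TGACNNNGC, the core of the antioxidant response element, were in none of the 8 windows and in 10.2% of all windows. CCAAT, on either strand, was in the windows of Ahcy, Bhmt, Cbs, Gnmt and Mat2a and in 1 Pemt window, and in 33.9% of all windows. Such letters describe the window and do not show that a factor binds there.

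Around the 9 enzymes, 7 pathway lists held 135 other genes, of which Amd1 and Sqor had no feature. At 2-fold, 4 of them were lower in AAI-treated females and none higher. In AAI-treated males, 6 were higher and 2 lower, and those reported are named with their values here, to be read beside the shares of all genes given above. The list of SAM synthesis and salvage (16 genes tested) held no gene past 2-fold in either sex, with medians of -0.03 in females and -0.05 in males. Adk, adenosine kinase, which removes the adenosine released by AHCY, was the gene of that list with the largest ratio upward. It read 13.87 with corn oil and 14.47 with AAI in females and 13.72 and 14.24 in males, higher with AAI by log2 ratios of 0.60 and 0.52. A dimmer Adk feature gave 1.10 and 1.05. Odc1, which starts polyamine synthesis, was at -0.59 and -0.21, with -0.10 and -0.03 on its other feature. Mtap, which recycles methylthioadenosine, was at -0.40 and -0.64, with -0.52 and -0.24 on its other feature.

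Of 23 folate cycle genes, Folr2 alone passed 2-fold, in females. Folr2, a folate receptor of macrophages, read 11.58 with corn oil and 9.79 with AAI in females and 11.12 and 10.66 in males, log2 ratios of -1.78 and -0.46. The Kupffer cell markers were lower on the same AAI-treated female array, with 7 of 10 at least 2-fold lower and a median of -1.36, and their part in the Folr2 ratio was not tested. Folr1 stood at -0.43 and -0.92, with -0.18 and -0.15 on its other feature.

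Of 18 glycine, serine and sarcosine genes, Gatm was past 2-fold lower in females and Phgdh past 2-fold higher in males. Gatm, which makes the creatine precursor guanidinoacetate from arginine and glycine, had log2 ratios of -1.19 in females and -0.76 in males on its brightest feature and -0.59 and -0.35 on the other. Phgdh, the entry to serine synthesis, read 6.37 with corn oil and 7.42 with AAI in males, a ratio of 1.04, and its ratio in females was -0.40. Glyat, which conjugates glycine to acids, was at -0.19 and -0.97, and at -1.25 and -1.35 in males on its other features.

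Of 17 choline and betaine genes, none passed 2-fold in females, and Chka was past 2-fold lower in males. Chka, choline kinase alpha, read 8.70 with corn oil and 7.66 with AAI in males, a ratio of -1.04, with -1.50 and 0.26 on its other features, and 0.00 in females. Slc44a3, a choline transporter-like gene, was at 0.67 in females and -0.44 in males.

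Of the transsulfuration and cysteine genes, 16 were tested in females with none past 2-fold, and 14 in males with Got1 past it. Got1, an aspartate aminotransferase that also acts on cysteine sulfinate, read 15.05 with corn oil and 14.43 with AAI in females and 14.01 and 15.31 in males, log2 ratios of -0.62 and 1.30. Its other features gave 0.09 and -0.08 in females, and 1.98 and 1.88 in males. Csad, which leads from cysteine to taurine, was at 0.87 in females and -0.997 in males, just under 2-fold, but its other feature gave 0.59 and -0.10. Fmo1 was at -0.22 and 0.73 on its brightest feature. Of its other features, one gave -1.04 in females and -0.38 in males, and the rest were above 0 in both sexes.

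Among the SAM-dependent methyltransferases, 33 were tested in females and 32 in males. Nnmt, which methylates nicotinamide, read 16.96 with corn oil and 15.72 with AAI in females and 16.12 and 16.63 in males, log2 ratios of -1.24 and 0.51. Its other features gave -0.50 and -1.11 in females, and 0.51 and 0.70 in males. Pnmt, the adrenal enzyme that makes adrenaline, was at 1.96 in males, on the array where 7 of 11 adrenal markers, Pnmt among them, were at least 2-fold higher. Prmt3 was at -1.62 in males on its brightest feature and at -0.34 and 0.12 on the others.

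Among 10 methionine and cystine transporters, the mitochondrial SAM carrier Slc25a26 was at -1.25 in females, with 0.38 and 0.09 on its other features. The amino acid transporters Slc1a5 and Slc43a1 were at 1.69 and 1.08 in males, and a second Slc43a1 feature gave -0.41. In males, 11 of 12 skeletal muscle markers were also at least 2-fold higher, and the part of other tissues in the ratios of Got1, Phgdh, Slc1a5 and Slc43a1 was not tested. The list medians stayed between -0.29 and 0.09 in females and between -0.22 and 0.05 in males.

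**Figure D4:**
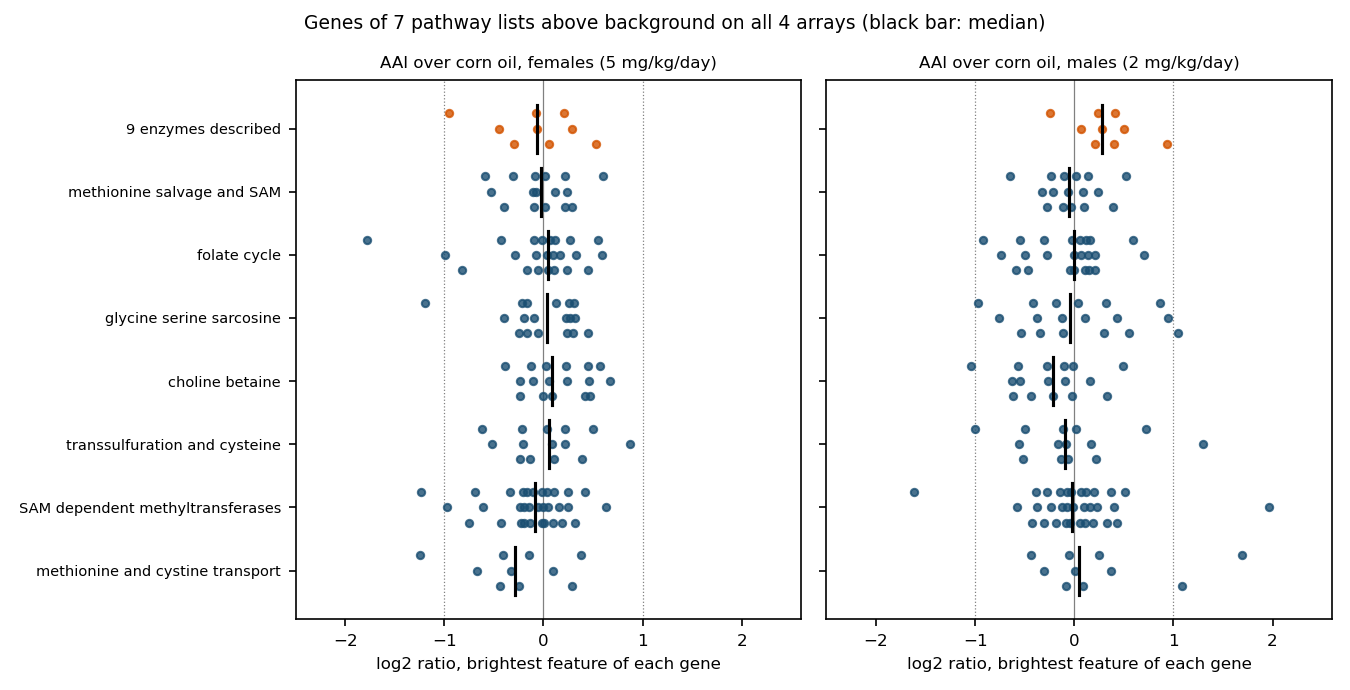
The log2 ratio of AAI over corn oil (x axis) for the 9 enzymes (orange) and for the genes of 7 pathway lists (blue, y axis) whose brightest feature was above background on all 4 arrays, in females and in males. Each point is 1 gene, black bars are medians of these genes, dotted lines mark 2-fold, and values outside the axis range are not drawn. The enzymes' median in males, 0.28, lies to the right of the medians of the 7 lists.

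The genes of the pathway lists whose pattern over the 4 arrays lay nearest to Gnmt were found by the Euclidean distance of log2 levels after each gene was centred on its own mean, among 129 genes. They were Enoph1 of the methionine salvage pathway at a distance of 0.10, Agxt, the glyoxylate aminotransferase, at 0.13, and the arsenic methyltransferase As3mt at 0.15. For Ahcy, the enzyme with the largest range over the arrays, they were Fmo1 at 0.25, As3mt at 0.48 and Trdmt1 at 0.53. With 4 arrays, a short distance says only that these genes had similar steps between these pools.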

How the data were processed

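The authors pooled equal amounts of liver RNA from 5 mice per group, amplified and labelled it with Cy3, hybridized it to SurePrint G3 Mouse GE 8x60K arrays and read the scans with the software Feature Extraction, version 10.5.1.1. The intensity values deposited by the authors are linear processed intensity values, background-subtracted, detrended across the array on 3 of the 4 arrays and not normalized between arrays; each array has 59305 non-control spots, none saturated, and 75.8% to 82.3% well above background. A table of the whole series holds the authors' raw and quantile-normalized intensity. Feature coordinates are on mm9.

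Here control and outlier spots were left out, spots of a feature were averaged, spots whose processed value had been replaced by the background value were removed, and log2 values of the 56393 features with a value on all arrays were quantile normalized (Python 3.11.15, numpy 2.4.6, pandas 2.3.3). A gene was represented by its brightest feature and was tested where this feature was well above background on either array of a comparison. A value below background on the other array gave a bound. The ratio step was tested on simulated data. The alternatives were normexp (offset 50) in limma 3.58.1 under R 4.3.3, undetrended signals, 75th percentile scaling, the authors' normalized values, centring on hepatocyte markers, averaged features, replaced spots kept, no filter on dim features and a 3-fold limit. Detrending on all arrays and centring on the deviations of the hepatocyte markers were chosen after seeing the data.

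The 9 enzymes, the pathway lists and the marker lists were chosen with earlier results of these data known. Genes named were all 9 enzymes with all features. From each pathway list, up to 3 genes with the largest ratio in either sex, and past 2-fold where counted, were named among those above background on all arrays. The number of arrays, 1 per group, limits the precision, and repeated spots of a feature differed by an SD of 0.0451 to 0.0845 log2 units, which is technical only. The detection calls of the table were not used. Some genes that this rule would name are not reported here.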

Additional observations from a re-analysis of the deposited data

Results flagged for a closer look

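Mat1a and Bhmt had AAI ratios of opposite sign in the sexes, each beyond the SD between features on the brightest feature. Mat2a, Gnmt, Ahcy and Cbs also had opposite signs, but at least 1 ratio of each was within that SD. Mat2a missed the rule narrowly, with 0.2349 in males against an SD of 0.2383. The log2 ratio of Mat1a was -0.45 in females (5 mg/kg/day) and 0.40 in males (2 mg/kg/day). That of Bhmt was -0.30 in females and 0.28 in males on the brightest feature, and the coding feature had the same signs. The remaining Bhmt feature was below 0 in both sexes, at -0.10 and -0.36. The male Bhmt ratio was below the SD between features of 0.24 under 3 alternatives. It was 0.11 with normexp, 0.12 without detrending and 0.20 with features averaged. Each group was 1 array, so the difference between the sexes was not tested, and sex and dose cannot be told apart.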

How the results depend on the processing

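Of 396 values of single enzymes under 11 alternatives, 360 moved by less than the SD between features, 35 moved by more and 1 changed sign after exceeding it: Cbs in males, -0.25, became 0.0007 under 75th percentile scaling. Part of the 360 could not move. A 3-fold limit leaves every ratio as it is, and the filter on dim features removed none of the 14 features. Averaging cannot move the 6 enzymes with 1 feature, and none of the enzymes' spots had been replaced. Of 231 list medians, 224 moved by less than that SD. Centred on the hepatocyte marker median, the sex ratio medians turned to 0.0425 (folate cycle), 0.0226 (glycine, serine and sarcosine), 0.0529 (transport) and 0.0523 (transsulfuration). That centring gave 1 enzyme 2-fold higher in males and 1 lower in females, where quantile normalization gave 0, a difference between the sexes' AAI ratios of 0.82 against 0.48, and a sex ratio median of -0.26 against -0.55. It moved the median of all genes to -0.10, 0.19 and 0.26 for females, males and the sexes, and the lower share of 2-fold calls from 69.6%, 56.8% and 32.5% to 85.9%, 38.5% and 11.0%. Centring on the deviations of those markers moved the sex median to 0.13 and its lower share to 19.3%. Scaling to the 75th percentile gave 1 enzyme 2-fold lower in females, 2 lower in males than females (quantile 1), a sex ratio median of -0.80 and a lower share in females of 54.2%. With no filter on dim features the lower share in females was 57.2%, with 1068 higher and 1427 lower genes against 424 and 971. At 3-fold, 0 enzymes were lower in males than females, and 5 pathway genes in place of 12 were counted over both AAI comparisons. With normexp, 138 genes were 2-fold higher and 322 lower in females, and 514 and 633 in males against 1058 and 1389. Centring on the marker median subtracts the median level of the 22 markers, which shifts every ratio of a comparison alike. That level was 17.71 with corn oil and 17.87 with AAI in females, and 17.42 and 17.24 in males. The median log2 ratio of the same markers was -0.05 in females and 0.03 in males. The causes of the other differences were not tested. No paired analysis was possible because each group had 1 array, and no array could be left out. Arrays give no count depth, and all 14 features were above background.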

Other observations

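The AAI-treated males and AAI-treated females differed in sex and in dose, which cannot be told apart. On the brightest features, Mat2a was higher in AAI-treated males by a log2 difference of 1.15 and Mat1a by 0.48. The other 7 enzymes were lower there, from -0.09 for Pemt to -0.68 for Cbs, with Gnmt at -0.17, Bhmt at -0.31, Ahcy at -0.32, Cth at -0.44 and Sardh at -0.58. Among corn oil-treated mice the differences of Gnmt, Bhmt and Ahcy were -0.65, -0.88 and -1.32.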
